A study of Mus musculus with 40 samples.

Results

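The imprinted genes H19, Igf2, Igf2r, Dlk1, Meg3, Rian, Mirg, Cdkn1c, Peg3 and Plagl1 were followed through mouse skeletal muscle with and without Tsc1. They were chosen by gene symbol, with earlier results of the same libraries known, and all 10 were found among the 22844 genes of the deposited tables. All 10 also passed the filter on low counts that left 13543 genes for testing. Because the symbols were selected with those results in view, the adjusted p-values below place each gene within the fit of the whole table and are not independent evidence of its direction.

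The extensor digitorum longus (EDL), a fast hindlimb muscle, was sequenced as polyadenylated RNA in 40 libraries, 5 for each of 8 groups. Control mice (CON) were littermates with Tsc1 alleles flanked by loxP sites and no Cre recombinase, called wild type in the series description. Knockout mice (TSCmKO) lacked Tsc1 in skeletal muscle, which keeps mTORC1, the kinase complex that TSC1 restrains, constantly active. Both genotypes were studied at 3 and 9 months of age and carried the strain label Tsc1tm1Djk/J. Each age and genotype received vehicle or rapamycin (RM), an mTORC1 inhibitor, by intraperitoneal injection for 3 days, at 4 mg/kg per the labels; the study's text gives a higher daily dose for the 3-day treatment, so the dose is uncertain. The groups were 3mCON, 3mCON+RM, 3mTSCmKO, 3mTSCmKO+RM, 9mCON, 9mCON+RM, 9mTSCmKO and 9mTSCmKO+RM. The promoter that drives Cre is not given in the sources used here, and only muscle fibers are said to lose Tsc1, so RNA of other cells in the muscle came from cells that keep the gene.

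Imprinted genes are expressed from one parental copy, chosen by DNA methylation laid down in the germ line, and many of them set the growth of the embryo and placenta. H19 and Igf2 share one imprinted cluster: the maternal copy makes the H19 RNA and the paternal copy makes IGF2, a growth factor. In a second cluster the paternal copy makes DLK1, a transmembrane inhibitor of differentiation, and the maternal copy makes the noncoding RNAs Meg3, Rian and Mirg, which carry many small RNAs. The libraries give the summed RNA of both parental copies, so no statement on imprinting itself can be read from them.

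H19 (ENSMUSG00000000031, GRCm38 chr7:142575529-142578143, minus strand) is annotated as a long intergenic noncoding RNA, and Igf2 (ENSMUSG00000048583, chr7:142650766-142666816, minus strand) lies on the same strand of the same chromosome. Dlk1 (chr12:109452823-109463336), Meg3 (chr12:109541001-109571726), Rian (chr12:109603940-109661716) and Mirg (chr12:109729764-109749460) follow each other on the plus strand of chromosome 12. In the RefSeq miRNA table, 14 hairpins lay within Mirg, 3 within Rian, and 1 each within Meg3, H19 and Igf2, on the strand of the host. Small RNAs themselves were not measured by these libraries. The hairpin within H19 yields both arms of miR-675, shown because H19 was the most abundant of the 10 genes, with the seed (bases 2 to 8) in capitals (RefSeq, GRCm38.p6).
mmu-miR-675-5p: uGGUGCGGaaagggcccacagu
mmu-miR-675-3p: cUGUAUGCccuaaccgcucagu

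Meg3, Rian and Mirg moved together across the groups while Dlk1 did not, so the 250 bases before an annotated RefSeq start of each of the 4 genes are shown (GRCm38.p6, plus strand). Capitals mark TGACG and TATAAA on either strand. TGACGTCA is the full cyclic AMP response element (CRE), and TGACG is its shorter form and a part of it.
Meg3, chr12:109540746-109540995: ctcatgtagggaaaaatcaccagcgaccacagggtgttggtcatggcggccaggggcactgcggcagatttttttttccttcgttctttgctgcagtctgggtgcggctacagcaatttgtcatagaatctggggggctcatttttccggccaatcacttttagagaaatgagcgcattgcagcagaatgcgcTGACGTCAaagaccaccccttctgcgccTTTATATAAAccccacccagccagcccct
Rian, chr12:109603695-109603944: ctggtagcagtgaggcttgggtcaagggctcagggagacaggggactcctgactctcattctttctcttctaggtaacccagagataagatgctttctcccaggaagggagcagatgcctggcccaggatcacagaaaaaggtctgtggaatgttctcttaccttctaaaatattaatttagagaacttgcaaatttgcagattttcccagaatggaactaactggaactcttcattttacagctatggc
Mirg, chr12:109734731-109734980: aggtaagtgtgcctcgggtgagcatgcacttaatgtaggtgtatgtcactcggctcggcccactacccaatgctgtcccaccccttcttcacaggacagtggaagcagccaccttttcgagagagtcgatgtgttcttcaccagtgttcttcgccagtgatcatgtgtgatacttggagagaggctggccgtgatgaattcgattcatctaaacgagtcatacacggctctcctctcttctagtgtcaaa
Dlk1, chr12:109452573-109452822: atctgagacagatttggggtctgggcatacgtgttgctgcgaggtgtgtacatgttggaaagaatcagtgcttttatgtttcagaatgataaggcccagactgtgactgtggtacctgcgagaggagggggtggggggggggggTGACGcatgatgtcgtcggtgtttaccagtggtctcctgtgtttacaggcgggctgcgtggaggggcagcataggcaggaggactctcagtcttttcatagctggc

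The Meg3 window held the full TGACGTCA, beginning at position -57 from the start, and a TATAAA on each strand, overlapping each other. The window of another member, Peg3, also held a full TGACGTCA, beginning at -178. Within the 300-base windows of all 32851 RefSeq promoters, TGACGTCA was found in 1.79%, TGACG in 20.8% and TATAAA in 13.6%. The Dlk1 window held a single TGACG, and the Rian and Mirg windows held none of these letters. The second RefSeq start of Meg3 (upstream bases chr12:109545148-109545397) held none of them either.

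Total counts ranged from 8883870 to 35224669 per library, and these totals, with 5 mice a group, set the precision. Levels are given as CPM, the reads of a gene scaled to library size, after TMM scaling, which corrects for library composition, and levels of different genes are compared as TPM, which also divides by length. Fold changes are log2 values from edgeR's quasi-likelihood test over all 40 libraries, given with their standard errors (SE), and a gene was called at a Benjamini-Hochberg adjusted p under 0.05. Overlap of libraries between groups is given as a description, because the share of all genes without overlap was not counted. Tsc1 itself ranged from 51.3 to 134 CPM in the 20 control libraries and from 17.8 to 35.8 CPM in the 20 knockout libraries, so no knockout library reached the control range. The labels name no batches, but insert sizes of the 3-month libraries (175 to 239 nt) were mostly below those of the 9-month libraries (223 to 308 nt), so age and library preparation cannot be told apart.

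Markers of other cells moved with some groups. The summed CPM of 11 fibroblast markers was highest in 9mCON among the 9-month groups (1430 to 2930). It lay between 258 and 1140 in 9mCON+RM, between 474 and 1420 in 9mTSCmKO, and between 615 and 1100 in 9mTSCmKO+RM, and it was 1520 to 4230 across the 3-month groups. No fibroblast marker was at 0 throughout a group. In 9mTSCmKO against 9mCON, 8 of 11 fibroblast, 5 of 9 tendon, 3 of 7 endothelial, 2 of 8 adipocyte and 2 of 8 Schwann cell markers were lower, with none of these lists' markers higher, beside 18.9% of all tested genes lower. Of the smooth muscle and pericyte markers 4 of 8 were lower and 1, Des, was higher, of the macrophage markers 1 of 8 was lower and 1, Cd68, was higher, and no erythroid marker was called. Des encodes desmin, which the paper used to stain cultured myotubes, so it does not mark smooth muscle alone. Of the 10 EDL fiber markers 4 were lower. The summed fiber markers, which include the fast myosin Myh4 and the creatine kinase Ckm, were 106000 to 126000 CPM in 9mTSCmKO and 159000 to 185000 CPM in 9mCON. In 3mTSCmKO against 3mCON, Acta2 and Mcam of smooth muscle and pericytes and Scx of tendon were lower and the erythroid Slc4a1 was higher, with no other marker of these cell types called, beside 19.8% of all genes called. The summed erythroid markers ran from 468 to 9040 CPM in 3mTSCmKO and from 203 to 1260 CPM in 3mCON. Fewer cells of a type and less RNA per cell cannot be told apart in whole muscle.

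By mean TPM over the 40 libraries, H19 led the 10 genes at 758 TPM and ranked 144 of 22844. Meg3 followed at 121 TPM, Rian at 106, Peg3 at 81.2, Cdkn1c at 43.1, Igf2r at 29.3 and Igf2 at 16.7. The lowest were Mirg at 6.30 TPM, Plagl1 at 2.73 and Dlk1 at 1.53. Mirg counts went down to 3 and Dlk1 counts to 2 in single libraries, whereas no H19 library held fewer than 2361 counts.

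Tsc1 loss changed 5 of the 10 genes at 9 months and 6 at 3 months. At 9 months H19, Igf2, Meg3, Rian and Mirg were higher in 9mTSCmKO than in 9mCON and none was lower, beside 37.9% of all tested genes called in this contrast. At 3 months H19, Meg3, Rian, Mirg and Cdkn1c were higher and Igf2 was lower in 3mTSCmKO, beside 19.8% of all genes called. The median log2 fold change of the 10 genes was 0.51 at 9 months and 0.32 at 3 months, beside -0.0216 and -0.0243 over all tested genes. Because the 10 were chosen with results known and Meg3, Rian and Mirg moved together, these medians do not show a rise of imprinted genes as a set.

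H19 stood at 267, 260, 371, 233 and 200 CPM in the 9mCON libraries and at 1050, 872, 1140, 1020 and 852 CPM in the 9mTSCmKO libraries. The lowest knockout library was above the highest control library, and the ratio of the means was 3.71. The fold change was 1.89 on the log2 scale (SE 0.199, adjusted p = 7.95e-10). At 3 months H19 stood at 382, 335, 428, 362 and 349 CPM in 3mCON and at 760, 647, 794, 1130 and 1360 CPM in 3mTSCmKO. Again the groups did not overlap, with a fold change of 1.34 (SE 0.196, adjusted p = 1.9e-06). The difference between the ages in this fold change was 0.55 (SE 0.272), which did not pass the test (adjusted p = 0.254).

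H19 stayed above controls after rapamycin. The 9mTSCmKO+RM libraries held 1080, 692, 606, 707 and 836 CPM of H19, and the 3mTSCmKO+RM libraries 674, 739, 502, 754 and 1210 CPM. Both groups overlapped their vehicle groups, although 4 of 5 9mTSCmKO+RM libraries lay below every 9mTSCmKO library (ratio of the means 0.795), and the changes with rapamycin of -0.33 (SE 0.192, adjusted p = 0.187) at 9 months and, at 3 months, -0.28 (SE 0.192, adjusted p = 0.326) were not called. Against controls that also received rapamycin, H19 was still higher, by 1.34 (SE 0.196, adjusted p = 1.84e-06) at 9 months and, at 3 months, by 1.55 (SE 0.197, adjusted p = 4.34e-07). In order of mean CPM the 4 knockout groups, 775 to 986 CPM, came before the 4 control groups, 265 to 371 CPM, and no library of a knockout group fell to the highest control library. Within the 4 knockout groups, neighbours in this order lay within 1 SD of each other.

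Igf2 moved in opposite directions at the 2 ages. It stood at 35.2, 31.1, 31.7, 25.9 and 35.0 CPM in 3mCON and at 23.6, 27.6, 22.6, 16.7 and 25.6 CPM in 3mTSCmKO, where 4 of 5 libraries were below every control library. The fold change was -0.45 (SE 0.143, adjusted p = 0.02), a call that was lost with limma on log2(TPM + 0.1) (adjusted p = 0.0531) and in 3 of 10 fits that each left out a library (highest adjusted p = 0.0734). In 9mCON it stood at 31.5, 15.3, 25.3, 26.4 and 26.0 CPM and in 9mTSCmKO at 52.0, 41.5, 53.3, 42.1 and 38.4 CPM, without overlap. Here the fold change was 0.87 (SE 0.143, adjusted p = 6.91e-06). The fold changes at the 2 ages differed by 1.32 (SE 0.202, adjusted p = 6.64e-05), in a contrast that called 4.94% of all genes.

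Rapamycin lowered Igf2 in 9-month knockout muscle. The 9mTSCmKO+RM libraries held 25.0, 23.3, 30.1, 27.9 and 31.6 CPM, all below the lowest 9mTSCmKO library, with a fold change of -0.72 (SE 0.142, adjusted p = 0.000152). Among rapamycin-treated 9-month mice the genotypes differed by 0.26 (SE 0.144), which was not called (adjusted p = 0.209). Whether rapamycin changed Igf2 more in 9mTSCmKO than in 9mCON was not settled, since the difference of -0.60 (SE 0.202) missed the threshold (adjusted p = 0.0725). At 3 months Igf2 in 3mTSCmKO+RM was 23.3 CPM on average against 23.2 CPM in 3mTSCmKO.

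**Figure D1:**
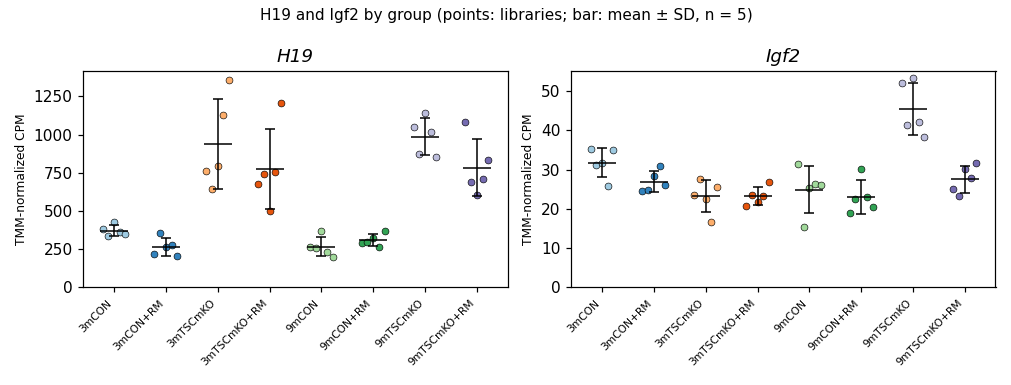
TMM-normalized CPM of H19 (left) and Igf2 (right) in the 8 groups; points are libraries and bars are the mean ± SD, n = 5. H19 is between 502 and 1360 CPM in every knockout library and at or below 428 CPM in every control library, whereas Igf2 stands apart only in 9mTSCmKO, at 38.4 to 53.3 CPM.

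H19 and Igf2 did not keep a fixed ratio. In TPM, H19 exceeded Igf2 by a factor of 26.3 ± 4.07 (SD, n = 5) in 3mCON and 24.6 ± 9.07 in 9mCON. The factor was 94.2 ± 41.4 in 3mTSCmKO, 72.9 ± 17.4 in 3mTSCmKO+RM, 46.4 ± 3.69 in 9mTSCmKO and 62.6 ± 17.4 in 9mTSCmKO+RM. Across the 40 libraries the log2 CPM of the pair had a Pearson r of 0.265 (Spearman rho 0.187), and of 0.0609 after each group's mean was subtracted.

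Meg3, Rian and Mirg rose together without Tsc1. Meg3 stood at 84.0, 60.9, 59.8, 72.9 and 80.9 CPM in 3mCON and at 159, 530, 258, 135 and 338 CPM in 3mTSCmKO, a fold change of 1.99 (SE 0.288, adjusted p = 2.13e-06). Rian stood at 53.1, 36.8, 23.4, 38.2 and 36.9 CPM in 3mCON and at 220, 629, 333, 166 and 301 CPM in 3mTSCmKO, a fold change of 3.13 (SE 0.295, adjusted p = 3.22e-10). Mirg stood at 2.35, 1.0, 0.661, 1.28 and 1.69 CPM in 3mCON and at 7.58, 38.6, 16.3, 6.30 and 16.9 CPM in 3mTSCmKO, a fold change of 3.62 (SE 0.415, adjusted p = 2.11e-08). None of the 3 genes overlapped between these groups, though how many of all genes likewise did not was not counted. The second knockout library was the highest for each of the 3, so the size of the rise rests partly on it.

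The same genes were higher at 9 months too. Meg3 stood at 129, 58.1, 75.9, 67.2 and 59.6 CPM in 9mCON and at 157, 123, 211, 110 and 272 CPM in 9mTSCmKO, so that the first control library lay among the knockout libraries (fold change 1.16, SE 0.282, adjusted p = 0.00127). Rian stood at 50.1, 37.0, 57.0, 50.3 and 37.9 CPM in 9mCON and at 87.9, 105, 116, 89.5 and 222 CPM in 9mTSCmKO (fold change 1.42, SE 0.278, adjusted p = 0.000106). Mirg rose from 1.28 to 7.36 CPM on average, without overlap (fold change 2.52, SE 0.419, adjusted p = 8.5e-06). The fold change of Rian was smaller at 9 than at 3 months, by a difference of -1.71 (SE 0.389, adjusted p = 0.00704), while the differences for Meg3 (-0.82, SE 0.394, adjusted p = 0.241) and Mirg (-1.10, SE 0.585, adjusted p = 0.299) did not pass.

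Rapamycin lowered all 3 noncoding RNAs in 9-month knockout muscle. Meg3 stood at 76.0, 72.1, 88.4, 60.9 and 74.5 CPM in 9mTSCmKO+RM, below every vehicle library (fold change -1.23, SE 0.282, adjusted p = 0.000939). Rian stood at 46.7, 60.1, 64.8, 45.4 and 44.1 CPM there (fold change -1.25, SE 0.277, adjusted p = 0.000646), and Mirg at 1.96, 2.54, 3.10, 1.31 and 1.83 CPM (fold change -1.77, SE 0.394, adjusted p = 0.000672). Neither gene overlapped between treated and vehicle knockout mice at this age, and the share of all genes without overlap was not counted. In the same contrast the summed fiber markers were 106000 to 126000 CPM with vehicle and 150000 to 189000 CPM with rapamycin, without overlap, with 5 of 10 markers higher and 1 lower, beside 32.6% of all genes called. Of the markers of other cells counted above, C1qa and C1qb of macrophages, S100b of Schwann cells, Kdr of endothelium and Thbs4 of tendon were lower. Higher were Tek, Rgs5 and Des, the last of which does not mark smooth muscle alone. The part of these markers in the fall of the 3 RNAs was not tested.

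At 3 months the calls of Rian and Mirg depended on 1 library. Rian stood at 172, 173, 157, 217 and 138 CPM in 3mTSCmKO+RM (fold change -0.94, SE 0.273, adjusted p = 0.00972), still above every 3mCON+RM library, and Mirg at 6.12, 8.40, 5.18, 10.2 and 5.34 CPM (fold change -1.27, SE 0.356, adjusted p = 0.00771). Without the second 3mTSCmKO library these became -0.57 for Rian and -0.73 for Mirg, and neither was called. The Mirg call was also lost in 2 of the 8 alternatives. Meg3 at -0.47 (SE 0.277, adjusted p = 0.241) was not called at 3 months with all libraries. Among rapamycin-treated mice, the genotypes still differed at 3 months in Meg3 (1.63, SE 0.285, adjusted p = 0.000127), Rian (2.23, SE 0.286, adjusted p = 6.8e-07) and Mirg (2.41, SE 0.414, adjusted p = 8.56e-05). At 9 months they differed in Rian (0.94, SE 0.28, adjusted p = 0.0138) and Mirg (1.35, SE 0.476, adjusted p = 0.0393) but the Meg3 value of 0.59 (SE 0.282) was not called in edgeR (adjusted p = 0.141), whereas both limma fits called it, at up to 0.85 (lowest adjusted p = 0.0221). Leaving out the fifth 9mCON+RM library ended both 9-month calls, with Rian at 0.78 and Mirg at 1.09. For Rian it was the only loss, whereas the Mirg call was lost in 5 of 10 fits that each left out a library (highest adjusted p = 0.115) and in 3 of the 8 alternatives.

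In control muscle edgeR called none of the 3 genes with rapamycin, though DESeq2 and both limma fits called Rian at 9 months (lowest adjusted p = 0.0403). In 9mCON+RM, Rian stood at 26.2, 19.5, 34.4, 41.6 and 15.3 CPM, 4 of them below every 9mCON library, with a fold change of -0.77 (SE 0.28, adjusted p = 0.0682). The Meg3 value there was -0.66 (SE 0.282, adjusted p = 0.131). No interaction of rapamycin and genotype was called for these genes at either age, so a larger effect in knockout than in control muscle was not shown.

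Over the 40 libraries the log2 CPM of Meg3 and Rian had a Pearson r of 0.955 (Spearman rho 0.913), Meg3 and Mirg 0.960 (0.940), and Rian and Mirg 0.961 (0.908). Without the 2 libraries farthest from the median of the first gene of each pair these were 0.940, 0.945 and 0.947. After subtraction of the group means they were 0.817, 0.872 and 0.811, so mice of the same group that were high in 1 of the 3 genes were mostly high in the others. All points share the library and its scaling factor. The proportions were not constant, however: Rian in TPM was 0.601 ± 0.122 of Meg3 (SD, n = 5) in 3mCON and 1.23 ± 0.182 of it in 3mTSCmKO, without overlap, but 0.676 ± 0.168 in 9mCON and 0.733 ± 0.160 in 9mTSCmKO. Mirg was 0.0295 ± 0.0119 of Meg3 in 3mCON and 0.0681 ± 0.0143 in 3mTSCmKO, and 0.0235 ± 0.00564 in 9mCON and 0.0650 ± 0.00757 in 9mTSCmKO. These transcripts share 0.17% to 0.526% of their 31-base words with other genes of the table.

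Dlk1, the protein-coding gene of the same cluster, did not follow them. It stood at 1.74, 2.73, 0.867, 1.31 and 1.86 CPM in 3mCON and at 1.84, 2.02, 2.21, 1.41 and 0.936 CPM in 3mTSCmKO, a fold change of 0.02 (SE 0.441, adjusted p = 0.985) whose sign changed with upper-quartile scaling. At 9 months its fold change was -0.52 (SE 0.44, adjusted p = 0.363), and without the first 9mTSCmKO library, the highest at 3.69 CPM, it was -1.19 and called. Both limma fits called it with all libraries, at up to -1.08 (lowest adjusted p = 0.0394). In 3mTSCmKO+RM it stood at 1.9, 3.91, 2.16, 5.38 and 4.86 CPM, a rise of 1.14 (SE 0.419, adjusted p = 0.0446) over 3mTSCmKO. That call was lost in 7 of 10 fits that each left out a library. Meg3 exceeded Dlk1 by a factor of 50.6 ± 17.6 in TPM (SD, n = 5) in 3mCON and of 221 ± 149 in 3mTSCmKO.

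**Figure D2:**
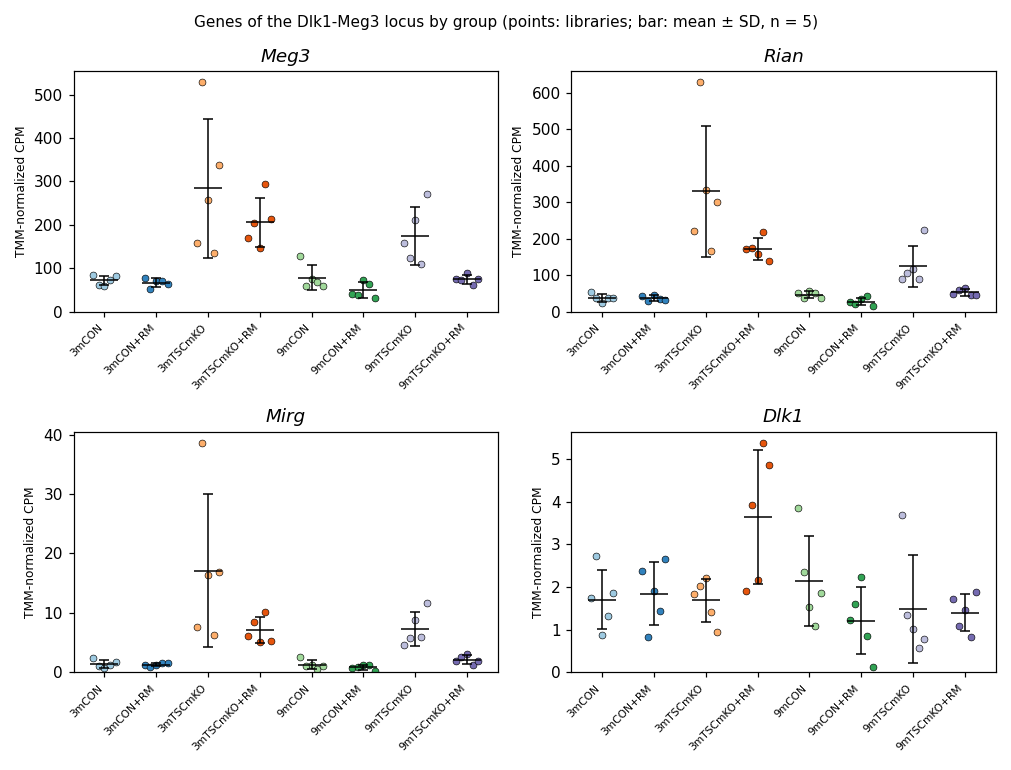
TMM-normalized CPM of Meg3, Rian, Mirg and Dlk1 in the 8 groups; points are libraries and bars are the mean ± SD, n = 5. The noncoding RNAs are highest in 3mTSCmKO, where 1 library reaches 530 CPM of Meg3, 629 of Rian and 38.6 of Mirg, and Dlk1 stays at or below 5.38 CPM throughout.

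Igf2r was higher after rapamycin in knockout muscle. It encodes the receptor that carries mannose 6-phosphate-tagged enzymes to lysosomes and removes IGF2, and lies at chr17:12682406-12769664 on the minus strand. In 3mTSCmKO it stood at 102, 128, 101, 73.1 and 91.0 CPM and in 3mTSCmKO+RM at 154, 165, 168, 194 and 163 CPM, without overlap (fold change 0.77, SE 0.171, adjusted p = 0.000817). In 9mTSCmKO it stood at 70.7, 110, 75.5, 93.0 and 74.8 CPM and in 9mTSCmKO+RM at 101, 153, 188, 147 and 134 CPM, where 4 of 5 treated libraries were above every vehicle library (fold change 0.77, SE 0.172, adjusted p = 0.000657). Tsc1 loss under vehicle gave -0.20 (SE 0.171, adjusted p = 0.465) at 3 months and, at 9 months, -0.11 (SE 0.171, adjusted p = 0.645), the latter turning to 0.02 on TPM. Its change with rapamycin was 0.10 (SE 0.171, adjusted p = 0.963) in 3mCON and 0.22 (SE 0.171, adjusted p = 0.482) in 9mCON. The difference between genotypes in this response was 0.67 (SE 0.242, adjusted p = 0.136) at 3 months and, at 9 months, 0.55 (SE 0.242, adjusted p = 0.181), and neither passed, though the fit of the compared groups alone called the 3-month difference (adjusted p = 0.0136).

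Airn, the noncoding RNA transcribed against Igf2r in the same cluster, is named here for its position and after its values were seen. It rose with rapamycin by 0.89 (SE 0.147, adjusted p = 1.59e-05) in 3-month and by 0.81 (SE 0.148, adjusted p = 5.22e-05) in 9-month knockout muscle. Its mean went from 6.92 to 12.8 CPM and from 7.08 to 12.4 CPM. Counting used the strand of the reads. Within groups the pair did not vary together (Pearson r = -0.226 over the 40 libraries after subtraction of group means; 0.513 before it).

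Cdkn1c encodes p57, an inhibitor of cyclin-dependent kinases, and lies at chr7:143458339-143461050. It stood at 31.7, 27.7, 21.3, 26.2 and 31 CPM in 3mCON and at 43.0, 48.2, 43.0, 31.6 and 46.9 CPM in 3mTSCmKO, with 4 of 5 knockout libraries above every control library (fold change 0.63, SE 0.161, adjusted p = 0.00404). With rapamycin it stood at 29.4, 29.2, 19.6, 31.4 and 38.4 CPM in 3mTSCmKO+RM, lower than with vehicle (fold change -0.52, SE 0.16, adjusted p = 0.0143), a call that both limma fits lost (highest adjusted p = 0.064). In controls of this age its change was 0.30 (SE 0.161, adjusted p = 0.627). The 2 responses differed by -0.82 (SE 0.227, adjusted p = 0.032), beside 3.45% of all genes called, but 11 of 20 fits without 1 library lost that call. At 9 months the genotypes differed by 0.15 (SE 0.16), which was not called (adjusted p = 0.478).

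Peg3, a zinc finger gene at chr7:6703892-6730431, was lower after rapamycin in knockout muscle. It stood at 489, 355, 307, 315 and 229 CPM in 9mTSCmKO and at 194, 234, 254, 211 and 219 CPM in 9mTSCmKO+RM (fold change -0.61, SE 0.231, adjusted p = 0.0406). In 3mTSCmKO it stood at 330, 292, 268, 146 and 349 CPM and in 3mTSCmKO+RM at 165, 192, 129, 204 and 168 CPM (fold change -0.69, SE 0.232, adjusted p = 0.0266). The groups overlapped at both ages, and the calls were lost in 6 and 3 of 10 fits that each left out a library. Of the 8 alternatives, 4 lost the 9-month call (highest adjusted p = 0.0934) and 2, both limma fits, the 3-month call (highest adjusted p = 0.0872). In controls the change with rapamycin was -0.45 (SE 0.231, adjusted p = 0.224) at 9 months and, at 3 months, -0.14 (SE 0.231, adjusted p = 0.958). The difference between genotypes in this response was -0.16 (SE 0.326, adjusted p = 0.832) at 9 months. At 3 months it was -0.55 (SE 0.326, adjusted p = 0.466). Neither was called, so a larger fall in knockout than in control muscle was not shown. Tsc1 loss alone gave -0.35 (SE 0.231, adjusted p = 0.239) at 9 months and, at 3 months, -0.15 (SE 0.231, adjusted p = 0.707).

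Plagl1, a zinc finger transcription factor at chr10:13060504-13131694, was lower with rapamycin in 9mCON and higher with it in 3mTSCmKO. In 9mCON it stood at 6.44, 4.07, 5.12, 6.5 and 4.54 CPM and in 9mCON+RM at 2.50, 2.73, 3.11, 2.66 and 1.08 CPM, without overlap (fold change -1.15, SE 0.29, adjusted p = 0.00704). In 3mTSCmKO it stood at 5.53, 6.07, 5.29, 3.10 and 4.10 CPM and in 3mTSCmKO+RM at 5.10, 9.07, 6.69, 13.3 and 8.89 CPM, higher by 0.86 (SE 0.265, adjusted p = 0.0153), a call lost with limma on log2(TPM + 0.1) (adjusted p = 0.0521) and in 2 of 10 fits that each left out a library. Its change with rapamycin was not called in 9mTSCmKO (-0.41, SE 0.276, adjusted p = 0.26) or 3mCON (-0.08, SE 0.265, adjusted p = 0.987). The difference between genotypes in this response was not called at 9 months (0.73, SE 0.4, adjusted p = 0.298) or at 3 months (0.94, SE 0.375, adjusted p = 0.198). Of the fibroblast markers 10 of 11 were lower in 9mCON+RM than in 9mCON (median log2 fold change -1.35), with 7 of 9 tendon and 7 of 8 macrophage markers lower as well, beside 6.82% of all genes lower. In 3mTSCmKO+RM, 2 of 11 fibroblast, 2 of 9 tendon and 2 of 8 macrophage markers were higher than in 3mTSCmKO, beside 10.6% of all genes higher. Over the 40 libraries Plagl1 had a Pearson r of 0.775 (Spearman rho 0.769) with the summed fibroblast markers, and of 0.550 within groups. The summed macrophage markers gave a like value (r = 0.776, rho 0.751; 0.465 within groups) and the tendon markers 0.681 (rho 0.729; 0.230 within groups). Their part in the Plagl1 and Dlk1 changes was not tested. For Dlk1 the values were 0.656 (0.632) and 0.620 with the fibroblast markers, and r was 0.599 with the macrophage and 0.523 with the tendon markers. For H19 the fibroblast values were -0.175 (-0.173) and -0.137.

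**Figure D3:**
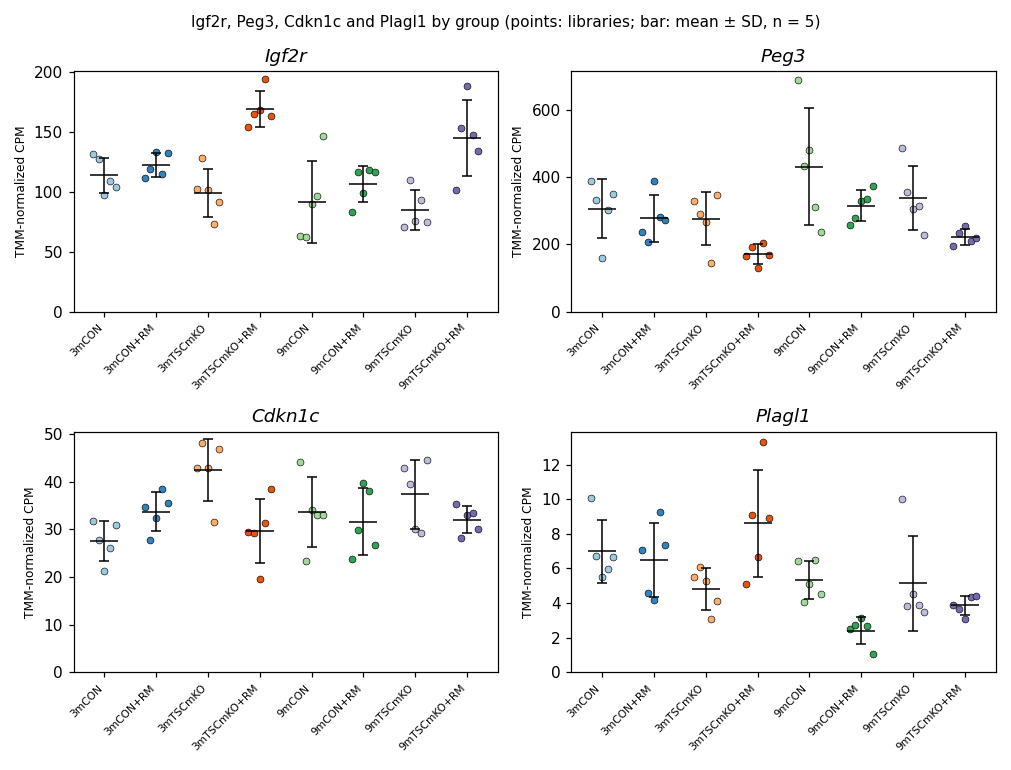
TMM-normalized CPM of Igf2r, Peg3, Cdkn1c and Plagl1 in the 8 groups; points are libraries and bars are the mean ± SD, n = 5. Igf2r is highest in the rapamycin-treated knockout groups (101 to 194 CPM), and Plagl1 is at or below 3.11 CPM in every 9mCON+RM library.

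**Figure D4:**
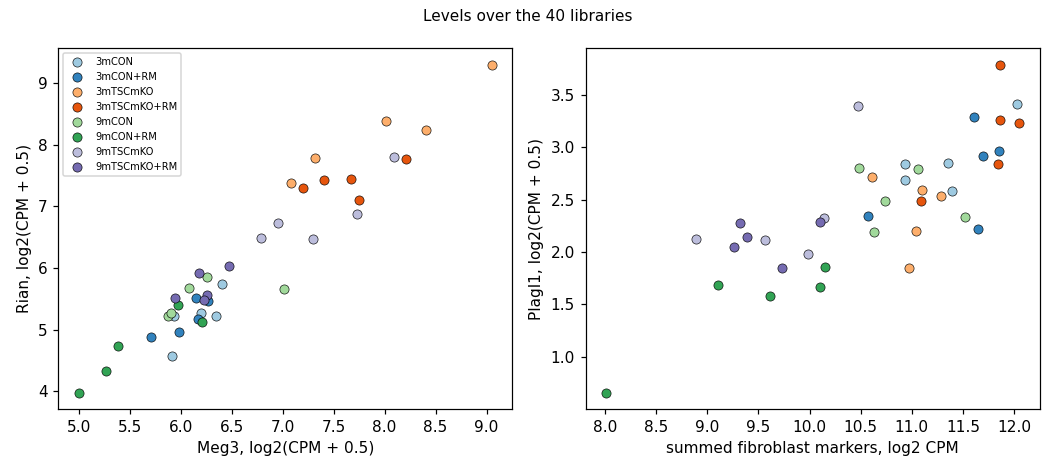
Left, Rian against Meg3, and right, Plagl1 against the summed CPM of 11 fibroblast markers, each on a log2 scale over the 40 libraries and colored by group. The points follow a line for Rian and Meg3 (r = 0.955) and a looser one for Plagl1 (r = 0.775), whose r with summed macrophage markers was 0.776.

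With rapamycin, the test called 6 of the 10 genes in 9mTSCmKO, 1 higher and 5 lower, beside 32.6% of all genes, and 7 in 3mTSCmKO, 3 higher and 4 lower, beside 23.6%. In controls it called only Plagl1 at 9 months (11.8% of all genes called) and no member at 3 months (0.679%), where 1 member, H19, had an unadjusted p under 0.05 in edgeR and DESeq2 called none. Under rapamycin the genotypes differed in 3 of the 10 genes at 9 months (20.6% of all genes) and in 5 at 3 months (10%), Peg3 being the fifth, at -0.69 (SE 0.232, adjusted p = 0.0483), a call that was lost in 6 of 8 alternatives and in 9 of 10 fits that each left out a library. Igf2r was not called in this comparison, at 0.47 (SE 0.171, adjusted p = 0.0742) at 3 months, where the groups did not overlap, and 0.44 (SE 0.171, adjusted p = 0.061) at 9 months, but the fit of the compared groups alone called the former (adjusted p = 0.000832) and upper-quartile scaling the latter (adjusted p = 0.0451). Peg3 at 9 months, at -0.50 (SE 0.231, adjusted p = 0.125) and without overlap, was called by the fit of the compared groups alone (adjusted p = 0.0147). Between rapamycin and genotype, no member was called at 9 months, beside 4.87% of all genes. There edgeR gave an unadjusted p under 0.05 for H19, Igf2 and Igf2r, and DESeq2 called Igf2.

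With age, no member was called in control muscle (9mCON against 3mCON, 1.02% of all genes), where edgeR gave an unadjusted p under 0.05 for H19, Igf2 and Peg3 and DESeq2 called none. Between 9mTSCmKO and 3mTSCmKO, which called 37.4% of all genes, Igf2 was higher at 9 months by 0.97 (SE 0.143, adjusted p = 2.53e-06). Rian (-1.41, SE 0.276, adjusted p = 0.000159), Mirg (-1.21, SE 0.357, adjusted p = 0.00771) and Meg3 (-0.70, SE 0.278, adjusted p = 0.0447) were lower. With insert size in the model, Igf2 alone of the 4 stayed under the threshold, since Rian then had an adjusted p of 0.053, Mirg of 0.263 and Meg3 of 0.339. Insert size went with age, and in this contrast the term widened the SE of Peg3 from 0.231 to 0.315 and of Plagl1 from 0.269 to 0.381. The lost calls therefore do not tell age and library preparation apart. The Meg3 call was lost in 5 of the 8 alternatives and the Mirg call in 4.

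**Figure D5:**
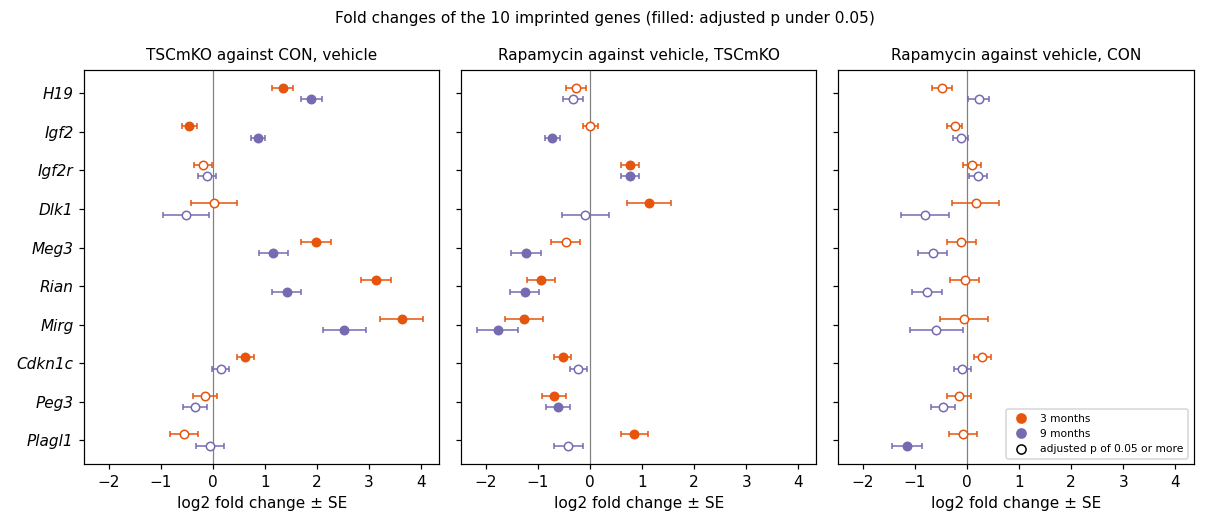
Log2 fold changes ± SE of the 10 genes for Tsc1 loss under vehicle (left), rapamycin in knockout muscle (middle) and rapamycin in control muscle (right), at 3 months (orange) and 9 months (purple); filled points have an adjusted p under 0.05. H19 is raised by Tsc1 loss and unfilled in both rapamycin panels, Igf2 lies on opposite sides of 0 at the 2 ages on the left, and Igf2r is filled only in the middle panel.

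Further imprinted genes were called about as often as genes in general. Of 35 tested genes from a list of them, 8 rose and 6 fell with Tsc1 loss at 9 months (median log2 fold change -0.04), beside 37.9% of all genes called, and 4 rose and 4 fell at 3 months, beside 19.8%. Tnfrsf23, a decoy receptor for the ligand TRAIL, was higher by 3.39 (SE 0.195, adjusted p = 2.34e-16) at 9 months and, at 3 months, 2.05 (SE 0.192, adjusted p = 1.6e-10). Peg10, derived from a retrotransposon, was higher by 1.87 (SE 0.245, adjusted p = 9.36e-08) and 1.78 (SE 0.247, adjusted p = 7.13e-07). Zdbf2, a paternally expressed gene, was lower at 3 months (fold change -2.44, SE 0.349, adjusted p = 1.3e-06), from a mean of 5.12 to 0.964 CPM. Nnat, a small membrane protein, was lower at 9 months, with a mean of 4.19 CPM in 9mCON and 0.316 CPM in 9mTSCmKO (fold change -3.69, SE 0.848, adjusted p = 0.000765).

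With rapamycin, 5 of the 35 rose and 7 fell in 9mTSCmKO, and 6 rose and 5 fell in 3mTSCmKO, beside 32.6% and 23.6% of all genes called. Peg10 was lower at 9 months (fold change -1.23, SE 0.236, adjusted p = 9.86e-05), as was Tnfrsf23 (fold change -1.15, SE 0.173, adjusted p = 2.63e-06). Asb4, a ubiquitin ligase subunit, was lower at 9 months (fold change -1.08, SE 0.137, adjusted p = 1.24e-07) and at 3 months (fold change -1.67, SE 0.139, adjusted p = 1.43e-11). In 3mTSCmKO+RM the cation transporter Slc22a3 was higher by 1.57 (SE 0.511, adjusted p = 0.0213) and Zdbf2 by 1.5 (SE 0.352, adjusted p = 0.00142). Usp29, which faces Peg3 and is named for that position after its values were seen, was lower with Tsc1 loss at 9 months (fold change -1.12, SE 0.33, adjusted p = 0.00694) and at 3 months (fold change -1.37, SE 0.336, adjusted p = 0.00263), in contrasts where Peg3 was not called. Within groups the pair had a Pearson r of 0.754 over the 40 libraries.

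In the IGF system, 2 of 17 tested genes other than Igf2 and Igf2r (ligands, receptors, binding proteins and their proteases, adaptors and mRNA-binding proteins) rose and 6 fell with Tsc1 loss at 9 months (37.9% of all genes called), and 1 rose and 1 fell at 3 months (19.8%). Igf2bp2, a protein that binds Igf2 mRNA, rose by 1.82 (SE 0.242, adjusted p = 1.28e-07) at 9 months and, at 3 months, by 0.95 (SE 0.242, adjusted p = 0.00381). The binding protein Igfbp6 was lower at 9 months (fold change -1.5, SE 0.288, adjusted p = 7.5e-05), as was Irs2, an adaptor of the insulin and IGF1 receptors (fold change -1.28, SE 0.191, adjusted p = 1.27e-06). Igfbp5 fell at 3 months (fold change -0.85, SE 0.183, adjusted p = 0.000603). Of 15 tested factors that keep imprints, 1 rose and 3 fell at 9 months and 4 fell at 3 months, beside the same shares of all genes. Zfp445, a zinc finger repressor that holds imprinted marks, was lower at 9 months (fold change -0.69, SE 0.108, adjusted p = 2.97e-06) and at 3 months (fold change -0.55, SE 0.108, adjusted p = 0.000187), and rose with rapamycin in knockout muscle by 0.59 (SE 0.108, adjusted p = 5.48e-05) and 0.57 (SE 0.108, adjusted p = 9.66e-05).

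Of 12 tested satellite cell and regeneration genes, 5 rose and 2 fell in 9mTSCmKO against 9mCON, beside 37.9% of all genes called, and 1 rose at 3 months, beside 19.8%. The 5 that rose were Chrng, Myf6, Myog, Ncam1 and Sdc4, the 2 that fell were Myh8 and Myod1, and Myf6 was the one at 3 months. The paper counts Chrng and Myog among genes of the muscle's response to denervation, so the list does not mark satellite cells alone. The summed level of the list went the other way, from a mean of 2820 CPM in 9mCON to 1910 CPM in 9mTSCmKO and from 2920 to 2220 CPM at 3 months, with overlap at both ages. With rapamycin the sum was higher, 3210 to 5130 CPM in 9mTSCmKO+RM against 1330 to 2670 CPM in 9mTSCmKO. Its mean was 4000 CPM in 3mTSCmKO+RM, 4120 CPM in 9mCON+RM and 3370 CPM in 3mCON+RM. The list holds the myosin Myh8, and reads that fit several transcripts were shared among them. Whether reads of other myosins enter the sum was not tested. The part of these genes in the changes of the imprinted genes was not tested.

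Among genes with a mean of at least 5 CPM, those close to H19 over the 40 libraries included St6galnac4, a sialyltransferase (r = 0.913), and Fbxo44, an F-box protein (0.906). Within groups these values were 0.365 and 0.608. Closest to Igf2 were Hk1, hexokinase 1 (r = 0.810; within groups 0.631), Ndrg4 (0.764; 0.272) and Map1b, a microtubule-associated protein (0.753; 0.389). Dlk1 was closest to Podn (0.775), Rcn3 (0.750) and Lima1 (0.740), and Meg3 to Rian (0.955), B230312C02Rik (0.833) and Tnfsf12 (0.815). These are descriptions over libraries that share groups and scaling.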

How the data were processed

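Polyadenylated RNA of whole EDL muscle was sequenced by the authors as 50-base strand-specific single reads. They trimmed reads with Cutadapt 1.9.1 and aligned them to Ensembl GRCm38 transcripts with kallisto 0.43.1, a read that fits several transcripts being shared equally among them. The deposited estimated counts are sums per gene, stored as whole numbers, and the deposited TPM values come from the same estimates. The transcript set is described as protein-coding, yet the tables hold long noncoding RNAs such as H19.

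The estimated counts were fitted with edgeR (TMM scaling, robust quasi-likelihood test, R), all 40 libraries and 8 groups in one model, genes with at least 1 CPM in at least 5 libraries, no covariates, 13 contrasts. Tested genes held 99.8% to 99.9% of each library's counts. Members and gene lists were chosen with earlier results of these data known. Besides the 10 members and Tsc1, up to 3 called genes with the largest fold change were named per list and contrast, and the 3 genes most correlated with each of H19, Igf2, Dlk1 and Meg3; 1 gene so chosen is not reported here. Correlations used log2(CPM + 0.5). Alternatives were other scaling, DESeq2, limma on log2(TPM + 1) and log2(TPM + 0.1), no filter, fewer groups, insert size, a replicate block and leaving out each library. The edgeR fit was tested on simulated data. Gene positions are from GENCODE M21 and sequences from RefSeq, both GRCm38; 8 of 10 members had a promoter entry. In the main fit each p-value sets a contrast of group means against the spread between mice within groups, estimated over all 8 groups.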

Additional observations from a re-analysis of the deposited data

Results flagged for a closer look

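In 80 combinations of gene and group, 5 held a library whose gap to the others exceeded Dixon's limit for 5 samples, a share close to the 1 in 20 that chance gives. The first 9mTSCmKO library was highest for both Dlk1 (3.69 CPM, next 1.35) and Plagl1 (10 CPM, next 4.52). The other 3 were Meg3 in the first 9mCON library (129 CPM, next 75.9), Rian in the fifth 9mTSCmKO library (222 CPM, next 116) and Plagl1 in the first 3mCON library (10.1 CPM, next 6.73).

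Of 30 interaction tests, 3 were called, each a fold change that differed between groups in edgeR. Igf2 differed between the ages in its response to Tsc1 loss by 1.32 (adjusted p = 6.64e-05), Rian by -1.71 (adjusted p = 0.00704), and Cdkn1c differed between the genotypes in its response to rapamycin at 3 months by -0.82 (adjusted p = 0.032).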

How the results depend on the processing

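Of the 40 member calls, 25 held when each library was left out in turn and with upper-quartile scaling, DESeq2, limma on log2(TPM + 1) or log2(TPM + 0.1), no filter, only the compared groups, insert size or a replicate block. These 25 were H19, Meg3, Rian and Mirg for Tsc1 loss at both ages, Igf2 at 9 months and Cdkn1c at 3 months; H19 at both ages and Meg3, Rian and Mirg at 3 months for the genotypes under rapamycin; Igf2, Igf2r, Meg3, Rian and Mirg for rapamycin in 9mTSCmKO, Igf2r in 3mTSCmKO and Plagl1 in 9mCON; Igf2 with age in knockouts; and the age interactions of Igf2 and Rian. A further 2, of Rian for rapamycin in 3mTSCmKO and for the genotypes under rapamycin at 9 months, held in the 8 alternatives but not without 1 library, and 13 were lost in at least 1 alternative. Over the 8 alternatives H19 ranged from 1.87 to 1.99 at 9 months and from 1.26 to 1.36 at 3 months. Over all members, contrasts and alternatives 37 values lost their call and 14 gained one, and the cause was not tested. Single libraries hold as few as 2 counts of Dlk1 and 3 of Mirg, which limits the precision of those libraries.

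For Tsc1 loss at 9 months, the fit of the compared groups alone called 2710 genes in place of 5133. For rapamycin in 9mTSCmKO it called 2512, for rapamycin in 9mCON 580, for rapamycin in 3mCON 378, for the genotypes under rapamycin at 3 months 2563, for age in controls 34, for genotype by age 310, and for rapamycin by genotype 201 at 9 and 1178 at 3 months. It called 2 members with age in knockouts and 2 (Cdkn1c and Igf2r) for rapamycin by genotype at 3 months. DESeq2 called 375 genes for age in controls and 179 for rapamycin in 3mCON, and it called 2 members (Plagl1 and Rian) for rapamycin in 9mCON and 1 (Igf2) for rapamycin by genotype at 9 months. Without a filter 83 genes were called for age in controls, 38 for rapamycin in 3mCON and 435 for rapamycin by genotype at 9 months. Insert size left 25 genes for age in controls and 1702 genes and 1 member for age in knockouts. Upper-quartile scaling and both limma fits called 0 members for rapamycin by genotype at 3 months, so the Cdkn1c call was lost in all 3. Both limma fits called 2 members (again Plagl1 and Rian) for rapamycin in 9mCON, log2(TPM + 1) called 215 genes for age in controls, and log2(TPM + 0.1) called 5 members for the genotypes under rapamycin at 9 months (Meg3 and Plagl1 besides H19, Rian and Mirg) and 2 for rapamycin in 3mTSCmKO.

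On TPM the median fold change of all genes was shifted by 0.119 and 0.125 (log2, pseudocounts 1 and 0.1) for the genotypes under rapamycin at 9 months, and by -0.122 and -0.132 for age in controls. The share of higher calls moved from 54.8% to 77.0% and 77.2% in the former and from 66.7% to 28.4% and 31.2% in the latter. It moved from 50.3% to 61.6% and 60.7% for Tsc1 loss at 9 months, from 56.5% to 67.1% and 66.8% for the genotypes under rapamycin at 3 months, from 44.9% to 55.4% and 55.0% for rapamycin in 3mTSCmKO (55.7% with upper-quartile scaling), from 42.5% to 30.8% and 28.6% for rapamycin in 9mCON, from 60.8% to 85.0% and 84.9% for genotype by age, and from 39.4% to 51.4% and 53.2% for rapamycin by genotype at 3 months.

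Signs turned only for values that were not called in either fit. For Dlk1 with Tsc1 loss at 3 months the values were -0.0187 (upper-quartile scaling) and -0.00406 and -0.00242 (limma), for rapamycin in 9mTSCmKO 0.22 and 0.47 (limma), and with insert size -0.0119 for the genotypes under rapamycin at 9 months and -0.53 for age in controls. With insert size, Mirg was 0.11 for age in controls, H19 -0.067, Peg3 -0.33 and Plagl1 -0.40 for age in knockouts, and Igf2 -0.0154 for rapamycin in 3mTSCmKO. With limma, Igf2r was 0.0154 and 0.0208 for Tsc1 loss at 9 months, Meg3 -0.0511 and -0.0524 for age in controls, Plagl1 -0.15 and -0.22 for age in knockouts and 0.000129 and 0.0213 for rapamycin in 9mTSCmKO. Without a filter Cdkn1c was -0.00965 for the genotypes under rapamycin at 9 months.

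Replicate numbers are shared by name only: over 140 pairs of same-numbered libraries of different groups the median correlation of deviations was -3.01e-05 (-0.422 to 0.509), against -0.00577 for other numbers. With the replicate block, 4 member calls were lost: Mirg for the genotypes under rapamycin at 9 months (1.34, adjusted p = 0.0503), Peg3 for the genotypes under rapamycin at 3 months (-0.70, adjusted p = 0.0553) and for rapamycin in 9mTSCmKO (-0.58, adjusted p = 0.0557), and Meg3 for age in knockouts (-0.72, adjusted p = 0.0543). Dlk1 turned to 0.0155 for rapamycin in 9mTSCmKO under the block, uncalled.

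Without 1 library each, 30 to 942 genes were called for age in controls (942 without the fifth 9mCON library, when Igf2r was called, so 0 to 1 members; 30 without the second) and 38 to 65 for rapamycin in 3mCON. Members called ranged from 4 to 7 for rapamycin in 3mTSCmKO (4 without the second vehicle library), 1 to 2 for rapamycin in 9mCON, 2 to 4 for age in knockouts (2 without the second 3mTSCmKO library), 1 to 4 for the genotypes under rapamycin at 9 months (1 without the fifth 9mCON+RM library), and 0 to 1 for rapamycin by genotype at either age. Values that turned sign, all uncalled, ranged as follows. For rapamycin in 3mCON, Dlk1 was -0.0347 to 0.38, Mirg -0.25 to 0.23, Plagl1 -0.26 to 0.0945 and Rian -0.17 to 0.12. For Tsc1 loss, Dlk1 was -0.16 to 0.23 and Peg3 -0.31 to 0.000537 at 3 months, and Igf2r -0.23 to 0.15 and Plagl1 -0.44 to 0.0584 at 9 months. For rapamycin in 3mTSCmKO, Igf2 was -0.088 to 0.0728. For age, Meg3 was -0.14 to 0.21 and Mirg -0.56 to 0.18 in controls, and Dlk1 -0.81 to 0.0376, H19 -0.0366 to 0.24 and Plagl1 -0.27 to 0.22 in knockouts. Cdkn1c was -0.19 to 0.0301 for rapamycin in 9mCON and -0.0676 to 0.11 for the genotypes under rapamycin at 9 months, where Dlk1 was -0.0909 to 0.52. Dlk1 was -0.30 to 0.59 for rapamycin in 9mTSCmKO. Igf2r was -0.0445 to 0.33 and Peg3 -0.36 to 0.0351 for genotype by age, and H19 -0.00523 to 0.38 for rapamycin by genotype at 3 months.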
